A study of Mus musculus with 3 samples.

Results

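The 6 genes of the GATA transcription factor family, Gata1 to Gata6, were compared with Hdac6, the gene that lies next to Gata1 on the X chromosome, for trimethylation of lysine 36 of histone H3 (H3K36me3) in mouse oocytes at the germinal vesicle (GV) stage, the fully grown stage before meiosis resumes. The members were the 2 kb windows of the genome that overlapped the 7 gene bodies (GENCODE M21, GRCm38) by at least 1 base, or lay within 20 kb on either side: 106 windows over the bodies and 231 with the flanks, of 1186323 valid windows. Of 21067 protein-coding genes with a valid window, these are 7. Gata1 was selected on its H3K36me3 in these same libraries, so its level is given as a description without a test, and Hdac6 was taken as its neighbour. No window was left out at any of the 7 loci.

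The study has 1 group, wild type GV oocytes collected from 25-day-old C57BL6/Babr mice, with 3 replicates that are each a pool of about 280 oocytes. Native chromatin immunoprecipitation for low cell numbers was sequenced, without crosslinking. A smaller amount of antibody went into replicate 2. There was no other genotype, treatment or time point, so every comparison below is between places in the genome within the same libraries. The replicates held 7888140, 2692510 and 3166564 reads in the windows, and 1 read was worth 0.136, 0.396 and 0.338 RPKM in replicates 1, 2 and 3. A window passed the study's limit for enrichment, a mean RPKM above 1 over the 3 replicates, in 31.8% of all valid windows, and 19.7% were above 1 in all 3 replicates.

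H3K36me3 is placed on nucleosomes behind elongating RNA polymerase II, chiefly by SETD2, and so usually covers the bodies of transcribed genes and stops short of their starts. H3K4me3 marks active or poised starts and, in the oocyte, also broad stretches away from them, and H3K27me3 is the mark of Polycomb repression. GATA factors bind DNA through a pair of zinc fingers. GATA1, GATA2 and GATA3 are best known from blood cells (GATA1 from red cells and megakaryocytes, GATA2 from stem and progenitor cells, GATA3 from T cells), and GATA4, GATA5 and GATA6 from heart, gut and gonad. HDAC6 is a mostly cytoplasmic deacetylase of tubulin and other proteins. RNA was not measured in the files used here.

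The promoter sequences show how the members' starts differ in CpG content, which the choice of the genes did not use. RefSeq promoters (250 bases before to 50 after a start, GRCm38.p6) were found for 5 of the 7 genes and are shown for 4 of them, 5′ to 3′ on the coding strand with every CG in capitals, at chrX:7967861-7968160 for Gata1, chrX:7947840-7948139 for Hdac6, chr6:88193641-88193940 for the more upstream of the 2 Gata2 starts and chr2:9878551-9878850 for Gata3. The first 2 are on the reverse strand, as is Gata3, and Gata2 is on the forward strand.
Gata1: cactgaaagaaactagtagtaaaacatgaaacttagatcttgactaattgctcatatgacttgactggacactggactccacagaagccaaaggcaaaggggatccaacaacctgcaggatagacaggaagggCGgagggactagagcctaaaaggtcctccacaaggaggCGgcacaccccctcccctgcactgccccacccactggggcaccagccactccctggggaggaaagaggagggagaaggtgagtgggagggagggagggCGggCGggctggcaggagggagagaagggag
Hdac6: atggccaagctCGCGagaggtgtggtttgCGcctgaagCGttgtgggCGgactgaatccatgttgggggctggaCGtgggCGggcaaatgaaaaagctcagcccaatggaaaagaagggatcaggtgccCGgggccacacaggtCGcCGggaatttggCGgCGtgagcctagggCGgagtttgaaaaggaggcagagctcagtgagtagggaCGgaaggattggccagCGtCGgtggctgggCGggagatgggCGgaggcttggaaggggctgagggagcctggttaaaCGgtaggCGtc
Gata2: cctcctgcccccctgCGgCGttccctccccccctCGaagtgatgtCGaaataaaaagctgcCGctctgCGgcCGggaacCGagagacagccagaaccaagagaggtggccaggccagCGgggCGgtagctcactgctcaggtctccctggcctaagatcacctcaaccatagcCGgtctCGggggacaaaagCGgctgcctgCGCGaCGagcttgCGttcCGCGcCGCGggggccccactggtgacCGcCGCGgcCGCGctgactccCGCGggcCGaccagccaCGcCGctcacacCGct
Gata3: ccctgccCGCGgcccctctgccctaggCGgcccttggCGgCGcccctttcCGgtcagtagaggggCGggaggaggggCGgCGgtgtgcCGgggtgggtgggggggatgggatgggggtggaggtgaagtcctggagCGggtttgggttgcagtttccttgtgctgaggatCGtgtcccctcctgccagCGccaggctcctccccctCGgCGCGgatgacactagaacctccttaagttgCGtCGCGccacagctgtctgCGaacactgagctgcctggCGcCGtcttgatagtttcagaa
Gata1 held 4 CG dinucleotides, Hdac6 20, Gata2 32 and Gata3 22, where the median of 32851 promoters of this length was 7. A share of 31.4% of promoters had fewer CG than Gata1, but 73.5% had fewer than Hdac6, 76.9% fewer than Gata3 and 90.5% fewer than Gata2. Gata5, on chromosome 2, held 26 (83.1% of promoters had fewer). Among these 5 genes, only Gata1 had promoter windows called for H3K36me3 and not for H3K4me3. These windows lie inside the Gata1 body, and the gene was selected for its H3K36me3, so their level is a description only. Their mean was 2.22 RPKM, against 0.514 at Hdac6, 0.355 at Gata2, 0.136 at Gata3 and 0.724 at Gata5. At those promoters H3K4me3 was called, alone at Hdac6 and with H3K27me3 at the others. The GATA recognition sequence AGATAA, its variant TGATAA, the form AGATAG or its variant TGATAG, read on both strands, occurred in 29.8% of all promoters. Of the promoters of these 5 genes, that of Gata3 held 1 match and the others held 0, which describes these windows of sequence only.

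Over the gene bodies Gata1 and Hdac6 stood above the other members. Gata1 measured 1.79, 2.88 and 2.37 RPKM in replicates 1, 2 and 3 (2.35 ± 0.55, SD, n = 3) from 302 reads over 11 windows. Hdac6 measured 1.98, 1.89 and 2.67 RPKM (2.18 ± 0.43) from 245 reads over 9 windows. Both genes were above 1 in every replicate. Which of them was higher depended on the replicate: Hdac6 was higher in replicates 1 and 3, Gata1 in replicate 2, and the log2 ratio of Gata1 to Hdac6 was 0.10 ± 0.44. Since each library is a pool, more oocytes carrying the mark and more mark per oocyte cannot be told apart.

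Gata4 was the only other member with a mean above 1. It measured 1.23, 1.09 and 1.24 RPKM (1.19 ± 0.083) from 573 reads over 37 windows. The median over its windows, taken within each replicate and then averaged, was 0.807, below 1. The median of its window means was 1.14. Gata5 followed with 0.928, 0.661 and 0.902 RPKM (0.830 ± 0.15) over 6 windows. Thus all replicates of Gata5 lay below all replicates of Gata4. Gata3 measured 0.596, 0.440 and 0.696 RPKM (0.577 ± 0.13) over 18 windows. Gata6 measured 0.455, 0.769 and 0.0995 RPKM (0.441 ± 0.34) over 17 windows, and the value of replicate 3 rested on 5 reads. Gata2 measured 0.594, 0.396 and 0 RPKM over 8 windows, and its 0 in replicate 3 allows up to 0.127 RPKM (3 reads).

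**Figure D1:**
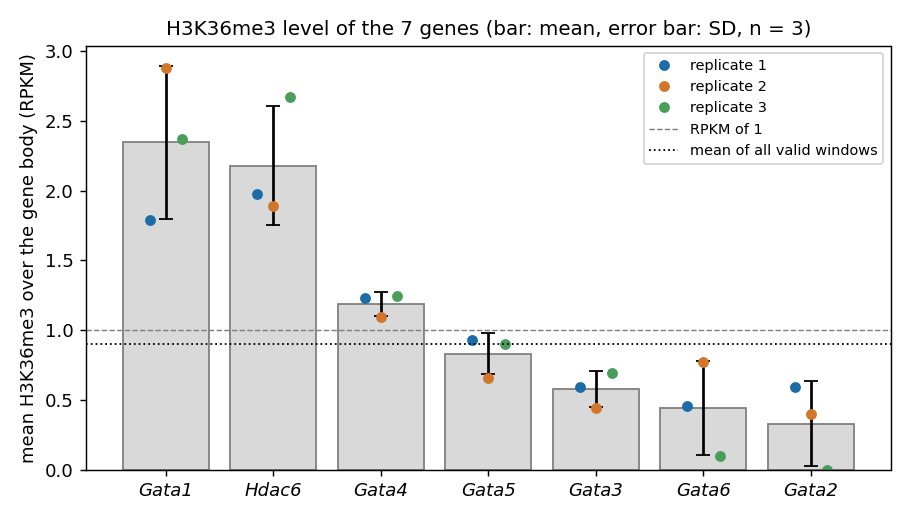
Mean H3K36me3 over the body of each gene in RPKM (vertical axis). Bars are means, error bars SD and points the 3 replicates, with a dashed line at 1 and a dotted line at the mean of all valid windows. Gata1 and Hdac6 lie above 1 in every replicate and overlap, Gata4 lies just above 1, and Gata5, Gata3, Gata6 and Gata2 lie below it.

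Not every step in the order of means exceeded the spread between replicates. Hdac6 was above Gata4 by 0.991 ± 0.38 RPKM (SD of the paired differences), Gata4 above Gata5 by 0.358 ± 0.067 and Gata5 above Gata3 by 0.253 ± 0.069, each in 3 of 3 replicates. Gata1 and Hdac6, Gata3 and Gata6, and Gata6 and Gata2 did not differ beyond that spread. The ratio of the means put Gata1 1.97-fold above Gata4, 2.83-fold above Gata5, 4.07-fold above Gata3, 5.32-fold above Gata6 and 7.11-fold above Gata2. The lowest 2 rest on single libraries: the log2 ratio of Gata1 to Gata2 was 1.59, 2.86 and at least 4.22 in replicates 1, 2 and 3, and to Gata6 1.98, 1.91 and 4.57. The level of Gata2 was 0.198 RPKM without replicate 1 and 0.495 without replicate 3, and that of Gata6 0.277 without replicate 2. These ratios describe a gene that was chosen for its level.

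Among all protein-coding genes, 52.5% had a mean above 1, and of the 7 members 3 did. Gata1 ranked above 89.5% of the genes, but its rank moved from 71.7% in replicate 1 to 85.8% in replicate 3 and 97.0% in replicate 2. Hdac6 ranked above 83.7%, Gata4 above 52.0%, Gata5 above 43.6%, Gata3 above 35.5%, Gata6 above 28.4% and Gata2 above 19.0%. Gata4 was thus near the middle of all genes although it passed the limit for enrichment. On the X chromosome, where 344 of 820 genes (42.0%) were above 1, Gata1 ranked above 91.2% and Hdac6 above 87.4%.

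Against the mean of all valid windows in the same replicate, Hdac6 was higher by 1.26 ± 0.27 and Gata4 by 0.40 ± 0.10 on the log2 scale, each in 3 of 3 replicates. Gata2, Gata3 and Gata6 were lower in 3 of 3 replicates, with log2 ratios of -1.54 ± 1.16 (replicate 3 set to 3 reads), -0.67 ± 0.33 and -1.47 ± 1.53. Without replicate 3 the ratios were -0.89 for Gata2 and -0.61 for Gata6. Each of these 5 genes had p = 0.25 when the signs of the 3 replicate values were flipped in all ways (exact permutation test, two-sided; 0.30 after Benjamini-Hochberg adjustment over 6 genes), which is the smallest p that 3 replicates allow, so the design cannot reach 0.05. Gata5 had a log2 ratio of -0.14 ± 0.27 (exact permutation p = 0.75, adjusted 0.75). Its sign turned without replicate 2, where the ratio was 0.019.

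The marks called by the study's authors, 1 call per window from other libraries for H3K4me3 and H3K27me3, differed between the members. H3K27me3 was called in 45 of the 106 body windows and H3K4me3 in 59, against 30.0% and 28.3% of all valid windows. Gata1 and Hdac6 had H3K27me3 in 0 of 20 windows. Gata2 had both marks in 8 of 8 windows, Gata3 H3K4me3 in 18 of 18 and H3K27me3 in 9, Gata5 H3K27me3 in 6 of 6 and H3K4me3 in 3, and Gata6 H3K4me3 in 15 of 17 and H3K27me3 in 12. Gata4 had H3K4me3 in 14 of 37 windows and H3K27me3 in 10.

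**Figure D2:**
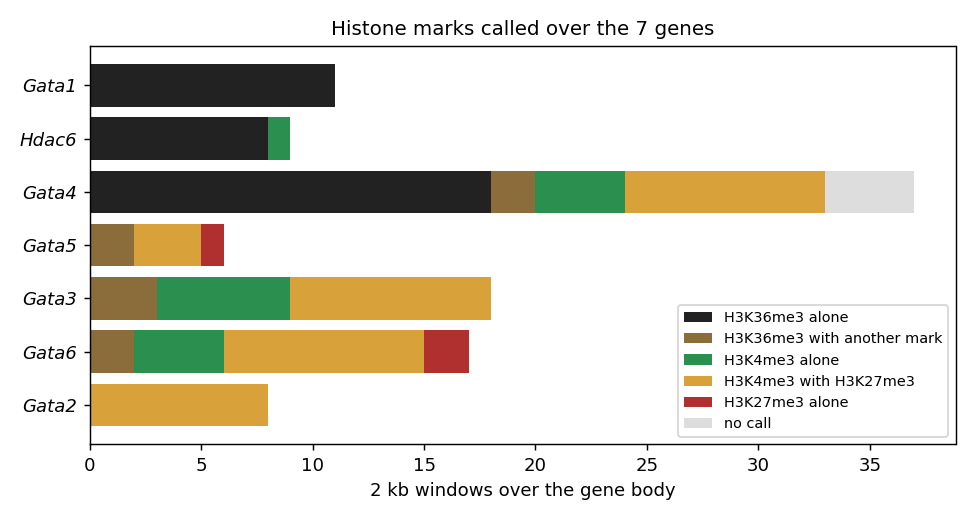
Number of 2 kb windows over each gene body (horizontal axis) by the marks called, with genes in the order of their mean H3K36me3. All 11 windows of Gata1 and 8 of 9 of Hdac6 carry H3K36me3 alone, all 8 of Gata2 carry H3K4me3 with H3K27me3, and Gata4 is divided between both states.

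CpG content also differed between the members, but Hdac6 and Gata6, whose calls were unlike, were close in it. The body windows held on average 24.7 CG dinucleotides at Gata1, 30.7 at Hdac6, 32.6 at Gata4, 33.0 at Gata6, 39.2 at Gata5, 45.2 at Gata3 and 71.8 at Gata2, against 16.6 over all valid windows. Gata1 was therefore the poorest of the 7 in CG, and still above the average window. Whether base composition had a part in the levels was not tested.

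The question of where the Gata1 domain begins was asked on the windows between Gata1 and Hdac6. Both genes are on the reverse strand, so that transcription of Gata1 runs toward Hdac6 and the end of Gata1 faces the start of Hdac6. Hdac6 (ENSMUSG00000031161.15) spans chromosome X 7930120 to 7947889 and Gata1 (ENSMUSG00000031162.14) 7959260 to 7978071, with 11.4 kb between them. The main Gata1 transcript starts inside the gene, at 7967910, and another, more distant start defines the outer edge of the gene model.

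H3K36me3 formed separate runs over the neighbours. The run of neighbouring windows with a mean above 1 that held Hdac6 went from 7930001 to 7946000 (16 kb), and the run that held Gata1 from 7952001 to 8006000 (54 kb). Between them lay 3 windows, 7946001 to 7952000, with means of 0.761, 0.268 and 0.626 RPKM. The Gata1 run thus began 4.11 kb from the start of Hdac6 and 7.26 kb beyond the annotated end of Gata1, so that the start of Hdac6 and its upstream 4 kb were outside both runs.

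The values on the 2 sides of this edge are given per library as a description, with no test, since the edge was defined by the mean of these same libraries. In the 6 kb between the runs replicate 1 had 0.543 RPKM (12 reads, exact Poisson 95% interval 0.281 to 0.949), replicate 2 had 0.661 (5 reads, 0.215 to 1.54) and replicate 3 had 0.451 (4 reads, 0.123 to 1.16). In the first 4 windows of the Gata1 run, up to 7960000, the same replicates had 2.75 RPKM (81 reads, 2.18 to 3.42), 4.26 (43 reads, 3.08 to 5.74) and 2.79 (33 reads, 1.92 to 3.92). The intervals cover counting error only. The last window below the limit had a mean of 0.626 RPKM and the first above it 2.04. The next 3 windows had 3.87, 3.32 and 3.84 RPKM, so the highest part of the domain lay at and past the end of Gata1, on the side of Hdac6.

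The position of this edge varied by 1 window. It stayed at 4.11 kb from Hdac6 without any 1 of the replicates, at limits of 1.5 and 2 RPKM, and when every replicate had to be above 1. In replicate 1 alone, where the window from 7950001 to 7952000 had 1.09 RPKM (8 reads), it lay at 2.11 kb, also by the best single break in the read counts. The breaks in replicates 2 and 3 fell at 4.11 kb.

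**Figure D3:**
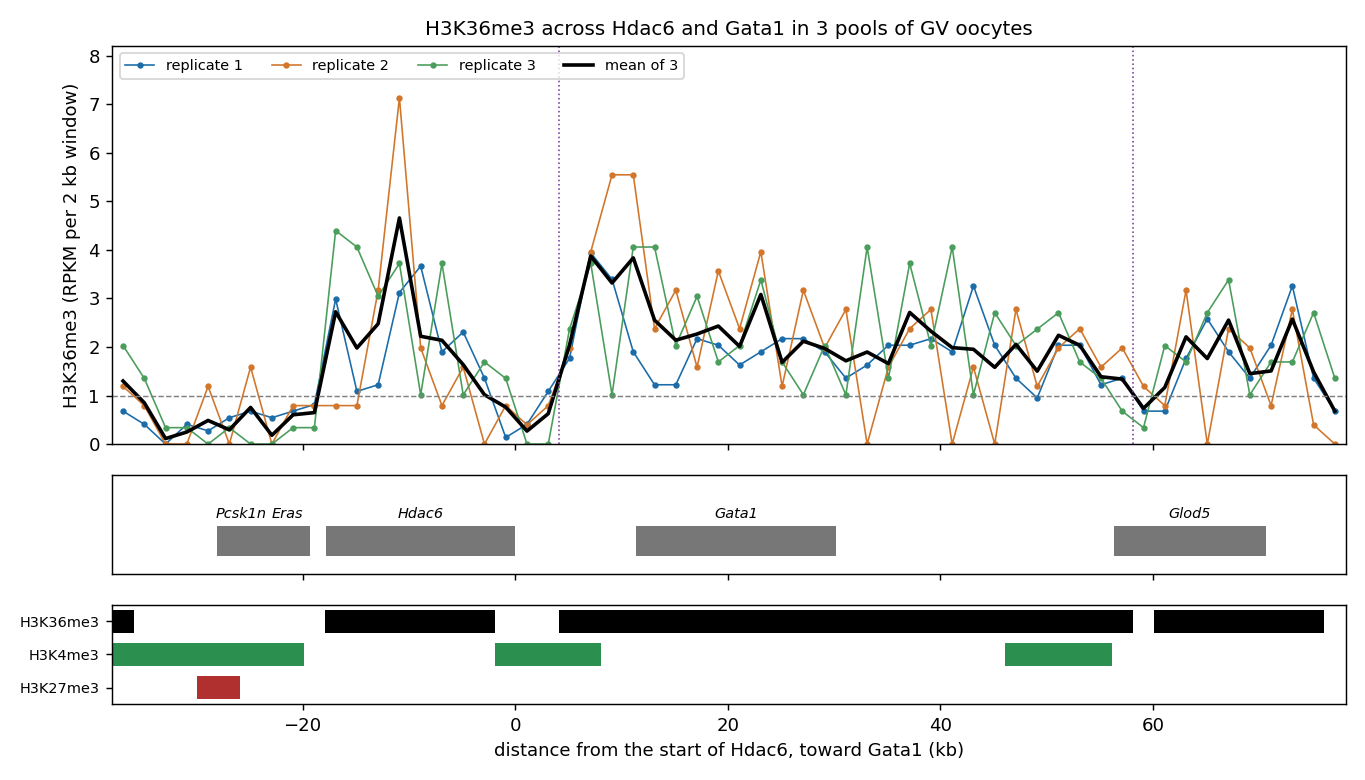
H3K36me3 in RPKM per 2 kb window (upper panel) against the distance in kb from the start of Hdac6, toward Gata1, with coloured lines for the 3 replicates, a black line for their mean, gene bodies in the middle panel and the calls of 3 marks below. The mean falls to 0.268 just upstream of Hdac6 and is above 1 between the dotted lines, which mark the Gata1 run from 4.11 kb to its other edge beside Glod5.

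The H3K4me3 calls did not change at this edge but ran across it. All 3 windows between the runs were called for H3K4me3 without H3K36me3, and the first 2 windows of the Gata1 run, 7952001 to 7956000, for both H3K36me3 and H3K4me3. H3K4me3 was thus called without a break over 10 kb, from the start of Hdac6 across the edge of the Gata1 domain. The windows between the runs were also richer in CG (47.7 per window) than those first 4 windows of the Gata1 run (17.8). H3K27me3 was called in 0 of these windows.

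Hdac6 itself had the low start and raised body that H3K36me3 usually shows. From its start toward its end, the means of the 9 windows were 0.761, 1.02, 1.64, 2.14, 2.22, 4.66, 2.48, 1.98 and 2.73 RPKM, and the run ended 1.89 kb inside the gene. At the other side the level fell to 0.649 RPKM in the first window past the end of Hdac6. The 20 kb beyond, which hold Eras (a Ras-like gene known from embryonic stem cells) and Pcsk1n (an inhibitor of a hormone-processing protease), had 0.502, 0.634 and 0.508 RPKM (0.548 ± 0.075), with H3K4me3 called in 9 of 10 windows.

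The run of Gata1, the gene selected for its H3K36me3, reaches into the space between the genes, so this space is not an unmarked background. The Hdac6 body was compared with the 5 windows that lie wholly between the genes, 3 of which belonged to the Gata1 run. These measured 2.12, 2.54 and 1.42 RPKM, and the log2 ratio of Hdac6 to them was 0.13 ± 0.69 (the same exact permutation test, n = 3, p = 1, smallest possible 0.25), a test too small to show a difference or its absence. Hdac6 was higher in replicate 3 only, and without replicate 3 the ratio was -0.26. Against the 2 windows of this stretch below the limit, which the values themselves chose, the log2 ratio was 1.82.

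The whole body of Gata1 carried the mark. The 11 body windows ranged from 1.68 to 3.84 RPKM, the highest at the end of the gene, and each was above 1 in all 3 replicates. By window midpoint, the 4 windows of the main transcript had 1.66, 2.68 and 2.71 RPKM. The 5 windows between its start and the outer start of the gene had 1.96, 2.54 and 2.03 RPKM. Over all windows that overlap the main transcript, the mean was 2.65 RPKM. The window at the main start had 2.43 RPKM and that at the outer start 1.72, both called for H3K36me3 alone. Past the outer start the replicates differed: the best single break in the reads fell 1.93 kb beyond it in replicate 2 (2.88 RPKM before and 1.53 after), 15.9 kb beyond it in replicate 1 and inside the gene in replicate 3. Among the 11037 protein-coding genes with a mean above 1 and a valid start window, that window was above 1 in 39.5%, and Gata1 belonged to these and Hdac6 did not.

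The run that held Gata1 also went on upstream of the gene, where its length was less certain. The 13 windows from the outer start to Glod5, a gene of the glyoxalase family, had 1.85, 1.62 and 2.32 RPKM (1.93 ± 0.36), and all 13 had a mean above 1. The run ended 27.9 kb beyond the outer Gata1 start, 1.80 kb inside the end of Glod5, where 1 window of 0.736 RPKM interrupted it before the mark resumed over Glod5 (1.59 ± 0.088 RPKM). With 1 window bridged, the run went on across Glod5 to 8074000 (122 kb), beside the start of Suv39h1 (8061171 to 8074760). Glod5 and Suv39h1 are on the reverse strand, like Gata1. Which of these genes the upstream part belongs to was not tested. Without replicate 3, or with every replicate above 1, the run ended 1.93 kb from the outer start and was 28 kb long, because replicate 2 had 0 reads in the next window. H3K4me3 was called with H3K36me3 in 5 of these upstream windows.

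Few runs in the genome were as long, but this run was reached through a gene selected for H3K36me3 in these same libraries. The shares in this paragraph are therefore a description only. They hold for the length of 54 kb, whereas the run was 28 kb long without replicate 3 and 20 kb at a limit of 2 RPKM. Of 75026 runs above 1 in the genome 2258 (3.01%) were at least 54 kb long, and the median was 4 kb. Of 2357 protein-coding genes lying wholly inside a run, 85.4% had a run that reached less far past their start than that of Gata1, and 56.9% less far past their end (medians 4.44 and 5.50 kb). The length past the start differed between replicates. Taken alone, replicates 1, 2 and 3 had runs that ended 17.9, 1.93 and 25.9 kb past Gata1.

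Other protein-coding genes within 100 kb of Gata1 were also enriched. Suv39h1, which encodes a histone H3 lysine 9 methyltransferase, had 2.21 ± 0.23 RPKM, Otud5, a deubiquitinase gene, 2.29 ± 0.21, Slc35a2, a UDP-galactose transporter gene, 1.76 ± 0.43, Pqbp1 1.42 ± 0.46, Timm17b 1.30 ± 0.26, Pim2, a kinase gene, 1.19 ± 0.055, and Gm10491, which lies in 1 window, 1.56 ± 0.74. Below 1 were Eras (0.478 ± 0.23), Pcsk1n (0.429 ± 0.31) and Gm10490 (0.498 ± 0.86, 1 window). Most of the protein-coding genes near Gata1 were thus above 1, with an interruption beyond Hdac6. The share above 1 was 52.5% among all protein-coding genes and 42.0% among those on the X chromosome.

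Gata4 (ENSMUSG00000021944.15, chromosome 14, 63198922 to 63271692, reverse strand) was the member in which the state changed inside the gene. The main transcript starts at 63245248, and other annotated starts lie up to the outer edge of the gene model. The 24 windows over the main transcript had 1.59, 1.55 and 1.80 RPKM (1.65 ± 0.14), with 19 above 1 in the mean and 8 above 1 in every replicate. The 13 windows upstream of the main start had 0.564, 0.244 and 0.208 RPKM (0.339 ± 0.20), with 1 above 1. The log2 ratio was 1.50, 2.67 and 3.12 in replicates 1, 2 and 3. This division was chosen after its values were seen and was not tested.

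The mean of Gata4 over its whole body therefore joined a marked and an unmarked stretch. The enriched windows of the main transcript stopped 3.25 kb after its start, at 63242000, and the best single break in the reads fell 3.25, 7.25 and 1.25 kb after the start in replicates 1, 2 and 3. Around that start H3K4me3 and H3K27me3 were called instead: upstream of it 12 of 13 windows had H3K4me3 and 8 had H3K27me3, against 2 and 2 of 24 over the main transcript. In the 20 kb past the end of Gata4 the level was 1.59 ± 0.26 RPKM. Neil2, a DNA repair glycosylase gene in this flank, had 1.77 ± 0.27 and Fdft1, the squalene synthase gene, 2.60 ± 0.53. In the 20 kb on the upstream side the level was 0.324 ± 0.15 with H3K27me3 called in 10 of 10 windows.

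**Figure D4:**
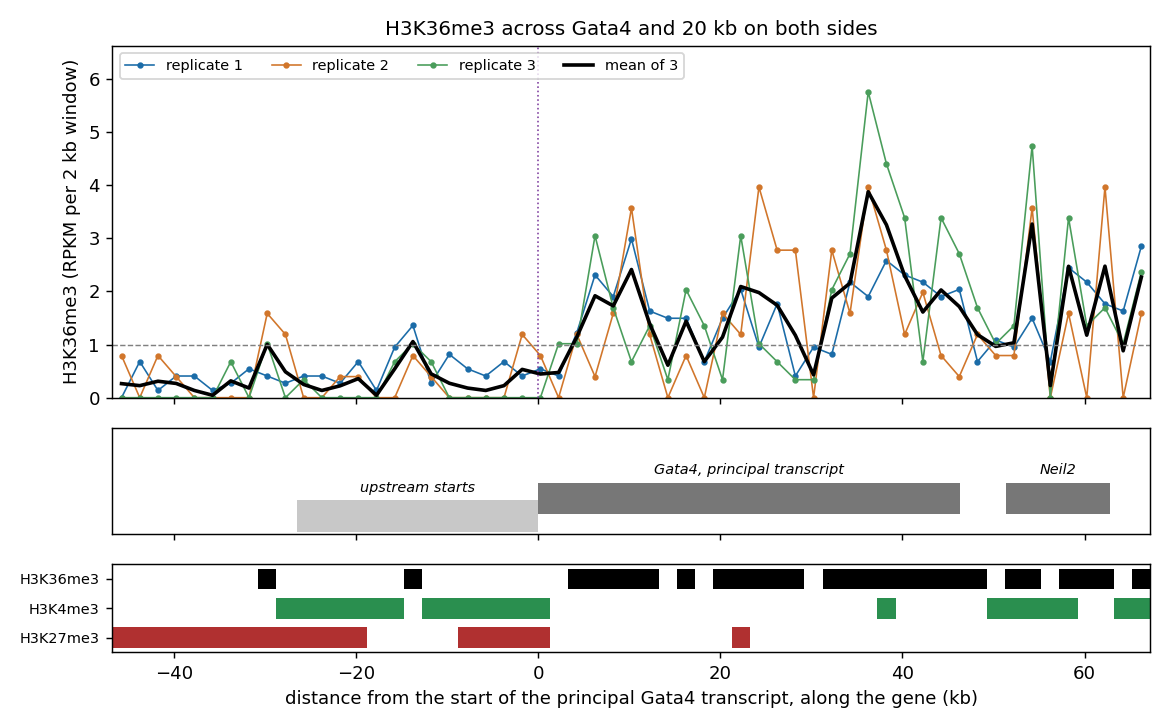
H3K36me3 in RPKM per 2 kb window (upper panel) against the distance in kb from the start of the main Gata4 transcript, along the gene, with coloured lines for the replicates and a black line for their mean. Below are the gene bodies and the calls of 3 marks. The mean is mostly above 1 to the right of the start (1.65 RPKM over the main transcript) and below it to the left (0.339 RPKM).

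The other 4 GATA genes had no such enriched stretch over most of their bodies. Gata2 (ENSMUSG00000015053.14, chromosome 6, 88193891 to 88207032, forward strand) had 0 of 8 windows above 1, with a highest window mean of 0.626 RPKM. Its flanks were also low (0.267 ± 0.092 upstream and 0.455 ± 0.24 downstream, where the chaperone gene Dnajb8 had 0.571 ± 0.19). The low level thus covered the whole locus and not the gene alone.

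Gata3 (ENSMUSG00000015619.10, chromosome 2, 9857078 to 9890034, reverse strand) had 3 windows above 1, side by side near its end, from 9858001 to 9864000. Their means were 1.45, 1.62 and 1.30 RPKM. The highest of them had 1.09, 0.396 and 3.38 RPKM in replicates 1, 2 and 3, and none of the 3 was above 1 in all replicates. The body was otherwise low, also over the genes 4930412O13Rik (0.315 ± 0.11) and 9230102O04Rik (0.352 ± 0.23), which overlap its outer part.

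Gata5 (ENSMUSG00000015627.5, chromosome 2, 180325133 to 180334699, reverse strand) lay closest to the limit throughout. Its 6 windows had means from 0.610 to 1.05 RPKM, with 2 just above 1 and 0 above 1 in every replicate. The flank past its end had 0.822 ± 0.30 RPKM and that upstream 0.428 ± 0.14. H3K27me3 was called in 10 of 10 windows on each side.

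Gata6 (ENSMUSG00000005836.10, forward strand) had 2 of 17 windows above 1, next to each other toward its end. The higher of them had 0.543, 4.36 and 0 RPKM in replicates 1, 2 and 3, from 4, 11 and 0 reads. It passed the limit through replicate 2, the library made with less antibody. Its flanks had 0.439 ± 0.088 RPKM upstream and 0.290 ± 0.21 downstream.

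**Figure D5:**
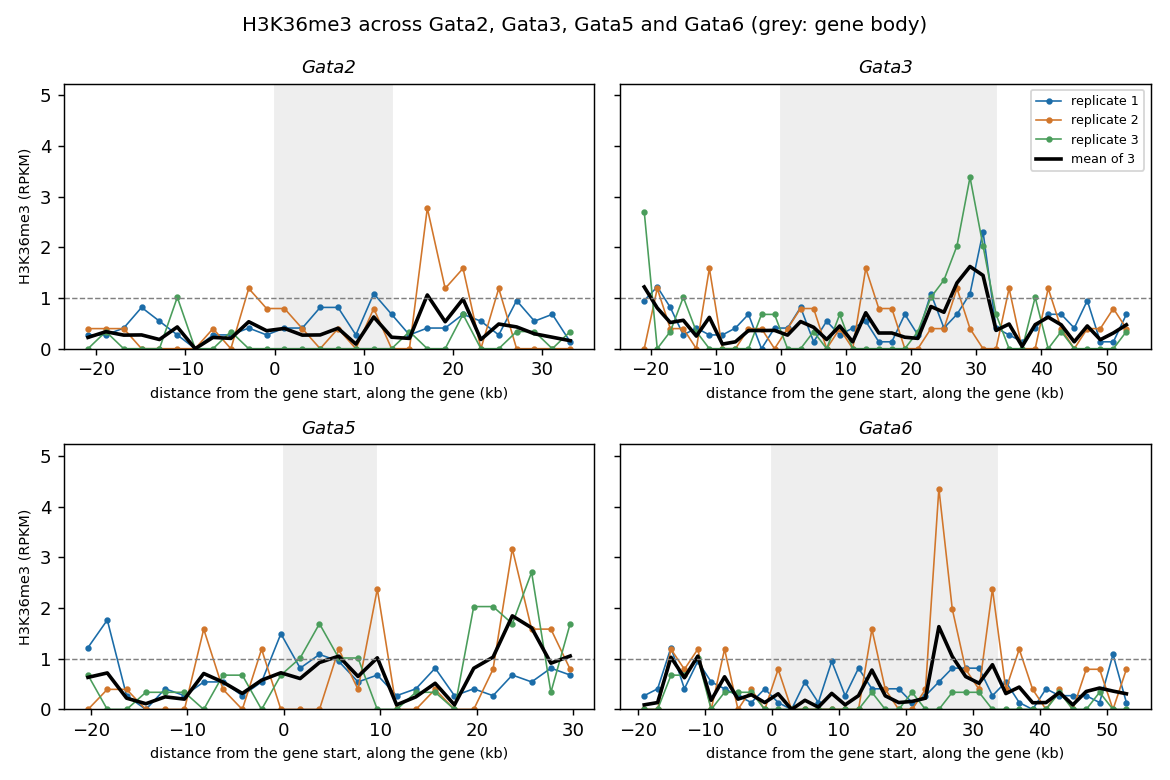
H3K36me3 in RPKM per 2 kb window (vertical axes) against the distance in kb from the start of each gene, along the gene, for Gata2, Gata3, Gata5 and Gata6. Coloured lines are the 3 replicates, the black line is their mean and the grey area the gene body. The mean stays below 1 except in short stretches, the highest of 1.62 RPKM within Gata3 and 1.63 within Gata6 among the bodies.

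Of 12 genes whose products work with GATA factors 4 had a mean above 1, where 52.5% of all protein-coding genes did, with a median of 0.731 RPKM, against 1.10 over all protein-coding genes. These were Zfpm1, the GATA1 cofactor FOG1 (2.26 ± 0.067), the E protein gene Tcf3 (1.76 ± 0.22), Lyl1 (1.63 ± 0.76) and the LIM-binding adaptor gene Ldb1 (1.23 ± 0.61). Below 1 were the blood regulators Tal1 (0.787), Lmo2 (0.232), Klf1 (0.430), Spi1 (0.611), Runx1 (0.341) and Fli1 (0.244), together with Cbfa2t3 (0.892) and Zfpm2, or FOG2 (0.676). H3K27me3 was called in at least 1 window of 8 of the 12 genes, against 9246 of all 21067 protein-coding genes, and the list holds long genes such as Zfpm2 (223 windows) and Runx1 (114 windows). Among Gata1 to Gata6 the count was 2 of 6, with a median of 0.704.

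The more distant zinc finger genes of the GATA type were enriched: Trps1 had 1.92 ± 0.12 RPKM, Gatad2a 2.21 ± 0.26, Gatad2b 2.29 ± 0.15 and Gatad1 1.37 ± 0.33. TRPS1 is a repressor, and the products of the last 3 belong to or act with chromatin complexes. Of the 10 other histone deacetylase genes measured, 6 were above 1, close to the 52.5% of all protein-coding genes, with a median of 1.70 RPKM. Hdac8, also on the X chromosome, had 2.73 ± 0.17, Hdac11 2.68 ± 0.63, Hdac3 2.05 ± 0.36, Hdac4 1.94 ± 0.042, Hdac2 1.87 ± 0.39 and Hdac1 1.54 ± 0.39. Below 1 were Hdac9 (0.880), Hdac10 (0.753), Hdac5 (0.485) and Hdac7 (0.445), so that Hdac6 with 2.18 lay within the range of the enriched deacetylase genes.

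Marker genes were read beside the labelled cell type. The lists were chosen with earlier results of these data known, so the counts are a description and no independent check of that label. Among all protein-coding genes 52.5% had a mean above 1. Of 10 oocyte genes 9 had a mean above 1, among them Zp3 (2.28 ± 0.37), which encodes a coat protein of the egg, Bmp15 (3.73 ± 1.03) and Ddx4 (2.62 ± 0.20), while the early transcription factor gene Sohlh1 had 0.330 ± 0.17. Of 8 granulosa and cumulus genes 4 were above 1, Nr5a2 (2.02 ± 0.20), Kitl (1.46 ± 0.11), Amh (1.39 ± 0.68) and Inhba (1.05 ± 0.33), a share near that of all protein-coding genes (52.5%). Below 1 were the defining gene Foxl2 (0.420 ± 0.30), Fshr (0.353 ± 0.031), Inha (0.534 ± 0.36) and Cyp19a1 (0.714 ± 0.084). Of 8 genes of red cells and megakaryocytes 1 was above 1, Alas2 on the X chromosome (2.42 ± 0.12, all 13 windows), and the others ranged from 0 to 0.733. Of 4 white blood cell genes 0 were above 1 (range 0.228 to 0.611).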

How the data were processed

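H3K36me3 was measured by native ChIP-seq in 3 pools of GV oocytes. According to the methods and labels, the authors trimmed reads with TrimGalore, aligned them to GRCm38 with Bowtie2 (2.2.9), removed windows with aberrant input signal and computed RPKM over 2 kb windows in SeqMonk. The deposited RPKM values were whole multiples of 1 read in each library, within 0.001 read, so read numbers could be recovered. A second deposited file names the marks (H3K36me3, H3K4me3, H3K27me3) called in each window, a category with no unit, in which H3K36me3 equalled a mean RPKM above 1 in every window. H3K4me3 and H3K27me3 calls came from earlier libraries. Whether duplicate reads were removed is not given in the sources used here, so intervals from reads cover counting error only.

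Levels are means over the windows of a gene in each replicate, with no pseudocount, then mean and SD over 3 replicates. A replicate without reads was set to 3 reads for log2 ratios. The text names the 7 genes, protein-coding genes within 20 kb of a member or 100 kb of Gata1, and genes of lists of GATA partners, related zinc finger genes, deacetylases and cell type markers. Members and lists were chosen with earlier results of these data known. The replicates are separate pools of oocytes, and none agreed within sampling noise (chi-square per degree of freedom 1.33 to 1.59). Analyses used Python 3.11.15, numpy 2.4.6, pandas 2.3.3 and scipy 1.17.1, and functions were tested on simulated data. Alternatives left out each replicate, pooled reads, or changed the windows, summary, transcript, pseudocount (0.1) or limit (0.5, 1.5 or 2).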

Additional observations from a re-analysis of the deposited data

How the results depend on the processing

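Of the alternatives tried for levels, ratios, edges and counts, 136 were classed as keeping the result, 19 as moving it and 3 as reversing it. A tested ratio was classed by its direction alone. Untested levels, ratios and edges were classed as kept when the move was smaller than the spread between replicates. The untested log2 ratio of Gata1 to Hdac6 was thus classed as kept, although its sign turned to -0.16 without replicate 2. Of the alternatives for the percentile ranks 33 kept the rank and 2 moved that of Gata4, to 50.6 by midpoint and 48.7 among genes with at least 3 windows. With the median over windows, taken within each replicate and averaged, Gata3 measured 0.381 and Gata4 0.807 RPKM. Against the median of all valid windows, in place of their mean, the median of Gata5 was higher by 0.43 on the log2 scale. Over its main transcript alone Gata4 measured 1.65 RPKM, and upstream of it 0.339, a division added after seeing the data. At a limit of 0.5 RPKM, 5 members passed, and at a limit of 2, 6 genes of the lists passed against 14. The edge toward Hdac6 lay 2.11 kb from that gene at a limit of 0.5, in replicate 1 alone and by the break in its reads, and otherwise at 4.11 kb. The other edge lay 65.9 kb past Gata1 at a limit of 0.5, -6.07 kb (inside the gene) at a limit of 2, 97.9 kb with a running mean, 95.9 kb with 1 window bridged, 1.93 kb with every replicate above 1, in replicate 2 alone and by its break, and -16.1 kb by the break of replicate 3. When each replicate was left out, it ranged from 1.93 to 27.9 kb, the ratio of Hdac6 to the stretch beside it from -0.26 to 0.40, and that of Gata5 to all windows from -0.22 to 0.019. The cause of these moves was not tested, apart from the construction of the alternative. Medians of 0 in a replicate gave no log2 ratio for Gata2 and Gata6. Depth limits single windows most: a value above 1 needs 8 reads in replicate 1 and 3 in the others. With 1 group there was no fit between groups in which the replicate number could be a block, and places in the genome were compared within each replicate.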
